A study of Mus musculus with 12 samples.

Results

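The 10 genes described here encode 6 desmosome proteins (Dsp, Dsg2, Dsc2, Pkp2, Pkp3 and Jup) and 4 keratins of simple epithelia (Krt7, Krt8, Krt18 and Krt19). They were chosen by name, as components of a junction and of the filaments anchored to it, with earlier results of these data known. They came from 23284 genes counted, and all 10 passed the filter on low counts. Their mRNA was read by sequencing in 12 neuroendocrine thyroid carcinomas of mice, primary tumours of a genetically engineered mouse model, to look for genes under the control of the histone acetyltransferase Crebbp. By genotype label 5 tumours were Rb1/Trp53/Crebbp (RPC-labelled here) and 7 were Rb1/Trp53 (RP-labelled here). Both groups therefore carry the Rb1 and Trp53 alleles, and the comparison is of Crebbp on that background. The sources used here do not give the promoter that drove deletion, the ages or the strains. The labels leave unsaid whether each tumour is from a mouse of its own. The p-values describe the spread between tumours, technical spread included, and treat the tumours as independent. Tumours that share a mouse would not be independent.

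Desmosomes are spot junctions that hold neighbouring epithelial cells together. Desmosomal cadherins (desmogleins and desmocollins) bind across the gap between cells, armadillo proteins (plakoglobin and the plakophilins) bind the cadherin tails, and the plakin desmoplakin ties this plaque to keratin filaments. Keratin filaments are obligate heteropolymers of a type II chain, here Krt7 or Krt8, with a type I chain, here Krt18 or Krt19, and simple epithelia and the tumours that arise from them are known for this set of chains.

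Reads counted in genes came to 9.14 M to 20.5 M for RPC-labelled and 9.11 M to 57.3 M for RP-labelled libraries. Levels are given as CPM, counts per 1 M after TMM scaling, and the floor of 3 counts lay between 0.146 and 0.328 CPM in RPC-labelled libraries and between 0.0523 and 0.329 CPM in RP-labelled libraries. Summed C cell markers, led by the calcitonin gene Calca, reached 25175 to 137879 CPM in RPC-labelled tumours and 95186 to 233440 CPM in RP-labelled tumours, so every library held C cell transcript, as its label has it. Crebbp itself averaged 53.9 ± 4.19 CPM (n = 5, SD) in RPC-labelled tumours and 54.6 ± 20.04 CPM (n = 7, SD) in RP-labelled tumours and was not called (adjusted p of 0.957 by edgeR). Its total counts therefore do not check the genotype label, and directions below are those between labelled groups. RPC-labelled tumour 5 stood apart by keratins of stratified epithelium, and RPC-labelled tumours 3 and 4 and RP-labelled tumour 3 each held a level of the thyroglobulin gene Tg inside the other group's range. Tg stood at 1682 and 5488 CPM in RPC-labelled tumours 3 and 4, beside 26.2 to 805 CPM in the others of that group, and at 1482 CPM in RP-labelled tumour 3, beside 5926 to 8998 CPM in the other RP-labelled tumours. In bulk tumour RNA, fewer cells of a type and less RNA per cell cannot be told apart.

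All 10 genes were expressed in every tumour. Scaled by the length of coding sequence, the keratins Krt7, Krt8 and Krt18 led, at means of 570 ± 169, 439 ± 91.3 and 356 ± 103 CPM per kb in RPC-labelled tumours (n = 5, SD). In RP-labelled tumours they stood at 677 ± 142, 555 ± 159.7 and 489 ± 114 CPM per kb (n = 7, SD). Plakoglobin (Jup) followed at 130.4 ± 11.3 CPM per kb in RPC-labelled and 157 ± 37.7 CPM per kb in RP-labelled tumours, and Krt19 at 88.2 ± 55.7 CPM per kb in RPC-labelled and 115 ± 38.3 CPM per kb in RP-labelled tumours. The remaining desmosome genes had lower means. In RPC-labelled tumours they ran down from Dsg2 (39.4 CPM per kb) through Dsp (25.8), Dsc2 (20.1) and Pkp3 (16.7) to Pkp2 (7.72). In RP-labelled tumours they ran from Dsg2 (39.3 CPM per kb) through Dsp (20.2), Pkp3 (14.1) and Dsc2 (13.0) to Pkp2 (10.4).

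Neighbours in this order mostly overlapped. In RPC-labelled tumours the lowest Krt18 value, 240 CPM per kb (239.9), lay above the highest Jup value of 143 CPM per kb, and the lowest Pkp3 value, 15.4, lay above the highest Pkp2 value, 11.1. RP-labelled tumours showed 3 such gaps, between Krt18 and Jup, between Krt19 and Dsg2, and between Dsg2 and Dsp. Dsc2 stood above Pkp3 in the RPC-labelled order and below it in the RP-labelled order, with overlapping ranges in both. This switch was seen with coding length alone. With full annotated transcripts, Pkp3 (14.1 CPM per kb) stood above Dsc2 (12.1) in RPC-labelled tumours. It did so in RP-labelled tumours as well (11.9 and 7.78). Dsp (23.2) then stood just above Dsg2 (23.0) in RPC-labelled tumours, and Pkp2 (8.54) above Dsc2 in RP-labelled tumours. The place of Krt7 depends on the length used: scaled by its full annotated transcript of 4.094 kb instead of 1.371 kb of coding sequence, its level was 191 CPM per kb in RPC-labelled and 227 CPM per kb in RP-labelled tumours, behind Krt8 and Krt18.

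**Figure D1:**
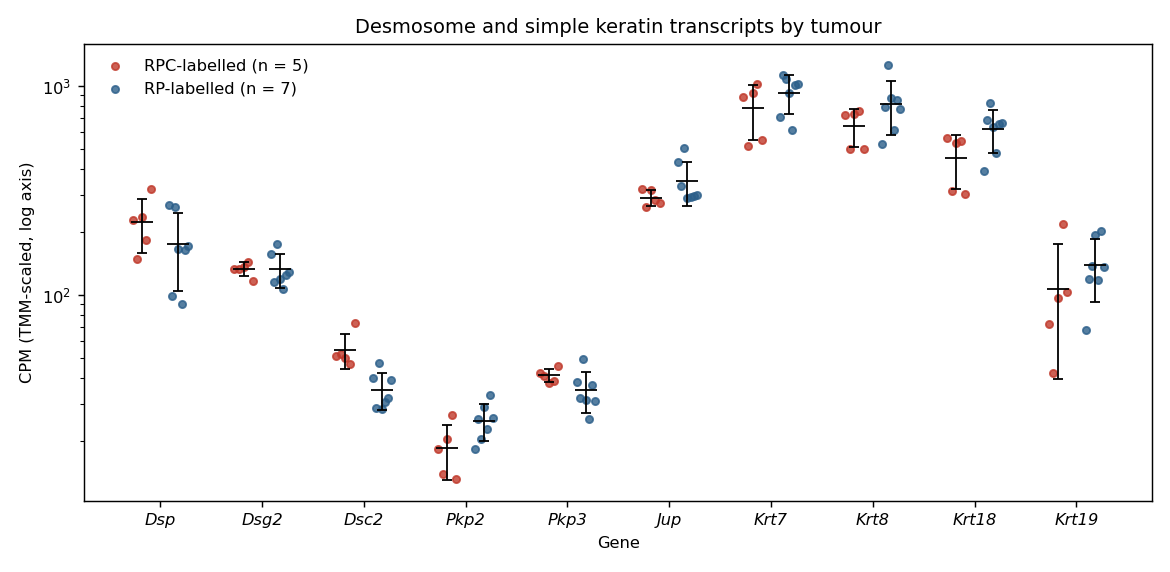
CPM of each gene in each tumour on a log axis, RPC-labelled tumours to the left of RP-labelled ones within each gene; points are tumours and bars the group means with SD. Krt7, Krt8 and Krt18 lie between 304 and 1263 CPM in all 12 tumours, Pkp2 between 13.1 and 33.1 CPM, and 4 of the 5 RPC-labelled Dsc2 values lie above every RP-labelled one.

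The desmocollin was the member that differed between genotypes. Dsc2 rose 1.55-fold in RPC-labelled tumours, while the fold of its desmosomal cadherin partner Dsg2 had a 95% interval of 0.832 to 1.21, and none of the armadillo, plakin or keratin genes passed the test. By edgeR's quasi-likelihood test with Benjamini-Hochberg adjustment over 14989 genes, 1 of 10 members was called at an adjusted p under 0.05, against 18.3% of all genes tested (9.64% higher and 8.61% lower), a share no higher than the background. With limma voom and sample weights, which called 42.4% of all genes, 5 members were called: Dsp, Dsc2 and Pkp3 higher and Pkp2 and Krt18 lower (adjusted p of 0.0207, 0.0139 and 0.0459 for Pkp3, Pkp2 and Krt18, and at the threshold for Dsp). Without adjustment, 2 members (Dsc2 and Pkp2) had p under 0.05, against 35.6% of all genes. The median log2 fold change was 0.12 over the 6 desmosome genes and -0.36 over the 4 keratins, beside -0.02 over all genes tested, and all 4 keratin values were below 0.

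Dsc2, which encodes desmocollin 2, the desmocollin of simple epithelia, had 51.1, 52.1, 49.7, 46.7 and 72.8 CPM in RPC-labelled tumours 1 to 5. In the 7 RP-labelled tumours its lowest, median and highest values were 28.3, 32.0 and 46.9 CPM. The 4 RPC-labelled tumours other than tumour 4 lay above the highest RP-labelled value, that of RP-labelled tumour 3, and tumour 4 lay just below it, so the ranges touched over these 2 tumours alone. The means were 54.5 ± 10.5 CPM (n = 5, SD) in RPC-labelled and 35.1 ± 7.02 CPM (n = 7, SD) in RP-labelled tumours, and the log2 fold change was 0.64 ± 0.15 (SE; adjusted p = 0.0179 by edgeR). RPC-labelled tumour 5 gave the highest value, and leaving it out gave a log2 fold change of 0.50 (adjusted p = 0.0450). Without RP-labelled tumour 3 and RPC-labelled tumour 4, both left out together, it was 0.77. That setting was added after seeing the data. It drops the 2 tumours over which the ranges touched, so a larger value was bound to follow.

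Dsg2, the desmoglein that pairs with desmocollin 2 in simple epithelia, had 133, 133, 136, 144 and 116 CPM in RPC-labelled tumours, against a lowest of 106, a median of 125 and a highest of 175 CPM in RP-labelled tumours. All RPC-labelled values lay inside the RP-labelled range. Its log2 fold change was 0.0045 ± 0.13 (SE; adjusted p = 0.983 by edgeR), and the coefficient of variation was 7.71% for the RPC-labelled and 18.7% for the RP-labelled tumours. The sign of this difference turned under 2 other scalings.

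The balance of the 2 cadherins separated the genotypes completely. Dsg2 counts were 2.61, 2.56, 2.73, 3.09 and 1.59 times Dsc2 counts in RPC-labelled tumours, against 3.29 to 4.19 times in RP-labelled tumours. All 5 RPC-labelled tumours lay below all 7 RP-labelled ones. For single genes, CPM ranges of the groups were apart in 0 of 10 members. Over all genes tested they were apart in 6.26% (3.62% higher and 2.64% lower). A share for ratios of gene pairs was not computed. Dsg2 hardly differed (log2 fold change 0.0045), so the ratio largely restates the Dsc2 difference (0.64). The mean log2 ratio was 1.30 ± 0.36 (n = 5, SD) in RPC-labelled and 1.91 ± 0.12 (n = 7, SD) in RP-labelled tumours, a difference of -0.62. The exact two-sided permutation p was 0.00126, the smallest that the 792 splits of 5 and 7 tumours can give, and 0.00758 after Benjamini-Hochberg adjustment over the 6 partner ratios examined. Without RPC-labelled tumour 5, whose ratio was the lowest, the difference was -0.46 (exact permutation adjusted p = 0.0182).

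**Figure D2:**
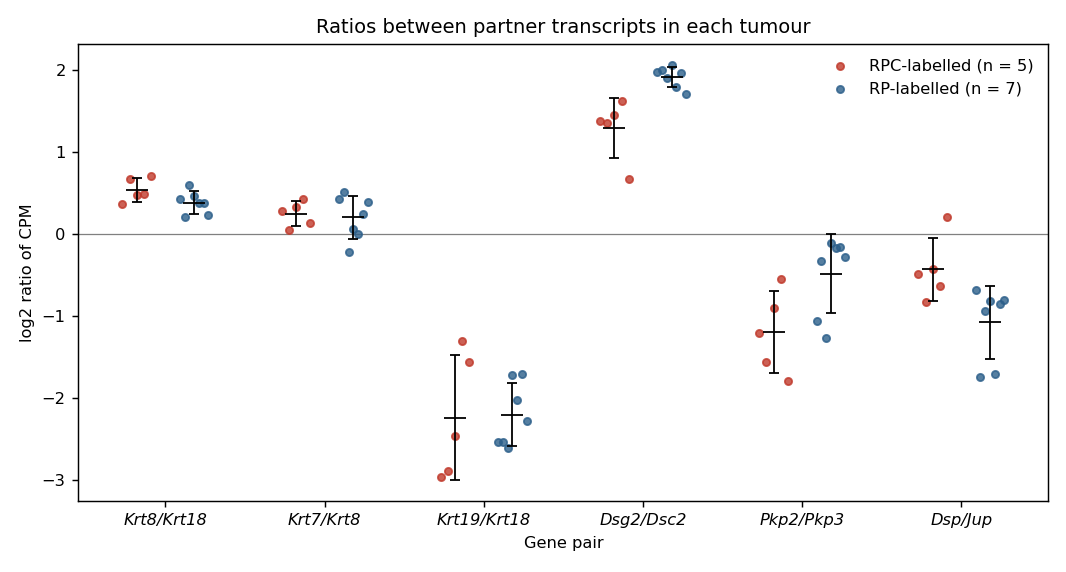
Log2 ratios of CPM between partner genes, RPC-labelled tumours to the left of RP-labelled ones; points are tumours and bars the group means with SD. The Dsg2/Dsc2 ratios of the 5 RPC-labelled tumours, 0.67 to 1.62, lie wholly below those of the RP-labelled tumours, 1.71 to 2.06, whereas the 3 keratin ratios overlap.

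Among the armadillo genes of the plaque, no call was made, and their values ran in different directions. Plakoglobin (Jup), which also joins classical cadherin junctions, had 319, 262, 316, 283 and 276 CPM in RPC-labelled tumours, against a lowest of 291, a median of 299.6 and a highest of 503 CPM in RP-labelled tumours. RPC-labelled tumours 2, 4 and 5 lay below the RP-labelled range, which was drawn out upward by RP-labelled tumours 3 (503 CPM) and 1 (434 CPM). The log2 fold change was -0.26 ± 0.15 (SE; adjusted p = 0.237 by edgeR).

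Plakophilin 2 (Pkp2), the plakophilin of simple epithelia and heart, had 18.3, 13.8, 20.3, 26.6 and 13.1 CPM in RPC-labelled tumours, against a lowest of 18.3, a median of 25.3 and a highest of 33.1 CPM in RP-labelled tumours. RPC-labelled tumour 4 alone stood above the RP-labelled median, tumours 2 and 5 stood below the RP-labelled range, and tumour 1 stood level with its lowest value. The Pkp2 log2 fold change was -0.44 ± 0.19 (SE; adjusted p = 0.128 by edgeR), and it was -0.60 with an adjusted p of 0.0372 without RPC-labelled tumour 4, which also held the highest Tg of its group. Plakophilin 3 (Pkp3), the plakophilin that binds the widest range of desmosomal partners, had 42.3, 40.9, 38.0, 38.7 and 45.5 CPM in RPC-labelled tumours, against a lowest of 25.5, a median of 31.9 and a highest of 49.4 CPM in RP-labelled tumours. All 5 RPC-labelled tumours lay above the RP-labelled median but below RP-labelled tumour 3. Its log2 fold change was 0.24 ± 0.14 (SE; adjusted p = 0.239 by edgeR), and it was 0.34 with an adjusted p of 0.0403 without that tumour.

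The ratio of Pkp2 to Pkp3 counts was 0.432, 0.339, 0.535, 0.686 and 0.288 in RPC-labelled tumours, against 0.413 to 0.926 in RP-labelled tumours. RPC-labelled tumours 2 and 5 lay below the RP-labelled range and the others inside it. The difference in mean log2 ratio, -0.72, had an exact two-sided permutation p of 0.0316 and an adjusted p of 0.0631, and without RP-labelled tumour 3 it was -0.85 with an adjusted p of 0.0390.

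Desmoplakin (Dsp), the plakin that anchors keratin filaments, had 229, 148, 235, 183 and 319 CPM in RPC-labelled tumours, against a lowest of 90.4, a median of 166 and a highest of 270.2 CPM in RP-labelled tumours. RPC-labelled tumour 5 was the highest of all 12, and the other 4 lay inside the RP-labelled range. Its log2 fold change was 0.35 ± 0.28 (SE; adjusted p = 0.387 by edgeR), and 0.17 without that tumour. Dsp varied 2.99-fold among RP-labelled tumours, with the lowest values in RP-labelled tumours 5 (90.4 CPM) and 2 (98.8 CPM) and the highest in tumours 1 and 3.

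Set against plakoglobin, desmoplakin differed between genotypes, although neither gene passed the test alone. Dsp counts were 0.716, 0.564, 0.743, 0.646 and 1.16 times Jup counts in RPC-labelled tumours, against 0.299 to 0.623 times in RP-labelled tumours. All RPC-labelled tumours but tumour 2 lay above the RP-labelled range. The difference in mean log2 ratio was 0.64 (exact two-sided permutation p = 0.0152, adjusted p = 0.0455). It was 0.48 with an adjusted p of 0.164 without RPC-labelled tumour 5, and the call was also lost without any one of RPC-labelled tumours 1, 3 and 4 or RP-labelled tumours 2, 4, 5 and 6 (log2 differences of 0.53 to 0.69, exact permutation adjusted p of 0.0519 to 0.0970).

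Summed over the 6 genes per kb of coding sequence, desmosome transcript was 216 to 253 CPM per kb in RPC-labelled tumours and 205 to 353 CPM per kb in RP-labelled tumours, so the groups overlapped. Plakoglobin made up 54.3% ± 2.52 (n = 5, SD) of it in RPC-labelled and 61.6% ± 3.04 (n = 7, SD) in RP-labelled tumours. Dsc2 made up 8.40% ± 1.57 (7.31% to 10.9%) in RPC-labelled tumours and 5.15% ± 0.590 (4.66% to 6.30%) in RP-labelled tumours.

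**Figure D3:**
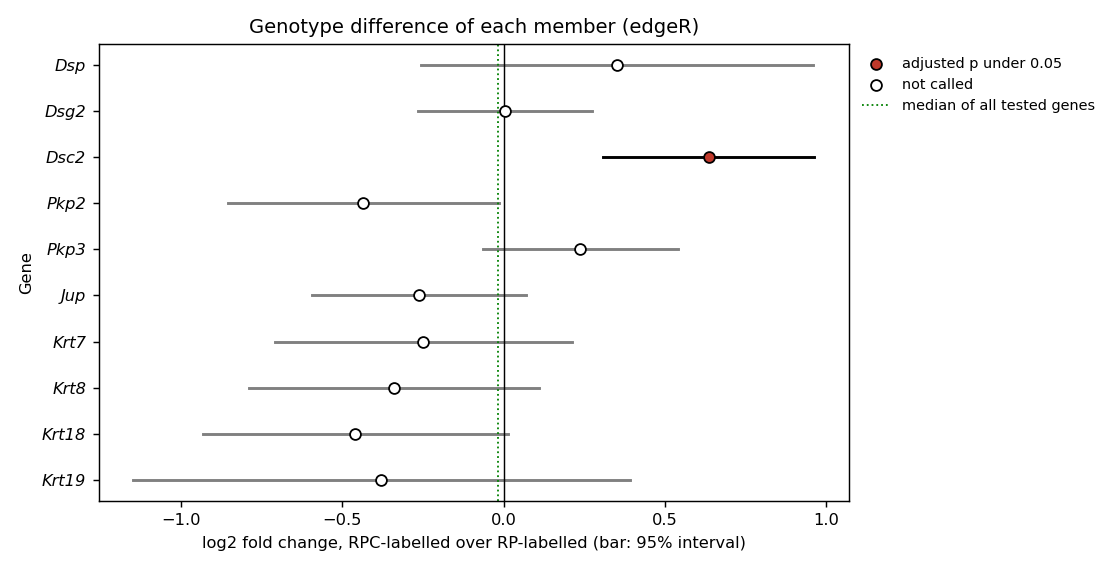
Log2 fold change of each gene, RPC-labelled over RP-labelled, with its 95% interval; the filled red point marks an adjusted p under 0.05 and the dotted line the median of all genes tested. Dsc2, at 0.64, is the one filled point; the 4 keratins lie between -0.46 and -0.25 with intervals that reach 0.

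The 4 keratins had lower mean levels in RPC-labelled tumours, and none was called. Krt8, the type II keratin present in nearly all simple epithelia, had 728, 499, 737, 762 and 498 CPM in RPC-labelled tumours, against a lowest of 527, a median of 796 and a highest of 1263 CPM in RP-labelled tumours. All 5 RPC-labelled tumours were under the RP-labelled median, and tumours 2 and 5 were under its range. For Krt8 the log2 fold change was -0.34 ± 0.21 (SE; adjusted p = 0.258 by edgeR).

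Krt18, the type I partner of Krt8, had 565, 313, 531, 543 and 304 CPM in RPC-labelled tumours, against a lowest of 390.4, a median of 656 and a highest of 832 CPM in RP-labelled tumours. Again all 5 RPC-labelled tumours were under the RP-labelled median and tumours 2 and 5 under the range. For Krt18 the log2 fold change was -0.46 ± 0.22, a fold of 0.727 with a 95% interval of 0.524 to 1.01 (SE; adjusted p = 0.150 by edgeR).

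Krt7, the type II keratin of glandular and ductal epithelia, had 888, 516, 927, 1023 and 549 CPM in RPC-labelled tumours, against a lowest of 618, a median of 1016 and a highest of 1133 CPM in RP-labelled tumours. The same 2 RPC-labelled tumours, 2 and 5, were under the RP-labelled range, and tumour 4 was above its median. The log2 fold change was -0.25 ± 0.21 (SE; adjusted p = 0.419 by edgeR).

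Krt19, the smallest keratin, a type I chain that lacks the usual tail domain, had 72.4, 42.1, 96.8, 219 and 103 CPM in RPC-labelled tumours, against a lowest of 67.5, a median of 136 and a highest of 202 CPM in RP-labelled tumours. It spread 5.21-fold among RPC-labelled tumours, more than any other member there, and 2.99-fold among RP-labelled tumours, and RPC-labelled tumour 4 was the highest and tumour 2 the lowest of all 12. The log2 fold change was -0.38 ± 0.36 (SE; adjusted p = 0.464 by edgeR). It was -0.82 (adjusted p of 0.0716) without RPC-labelled tumour 4 and -0.20 without RPC-labelled tumour 2.

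The ratios between keratin chains did not pass the test. The mean log2 ratio of Krt8 to Krt18 was 0.54 ± 0.15 (n = 5, SD) in RPC-labelled and 0.38 ± 0.14 (n = 7, SD) in RP-labelled tumours, a difference of 0.16 (exact two-sided permutation p = 0.0821, adjusted p = 0.123). For Krt7 to Krt8 the difference was 0.04, and for Krt19 to Krt18 it was -0.04, both with an exact permutation adjusted p of 0.909. Without RP-labelled tumour 3, which had the highest Krt8 of all tumours, the Krt8/Krt18 difference was 0.19 with an adjusted p of 0.0487. Per kb of coding sequence, Krt7 and Krt8 together were 2.08 to 2.55 times Krt18 and Krt19 together in RPC-labelled tumours and 1.84 to 2.41 times in RP-labelled tumours. Scaled by annotated transcript length, these ratios of type II to type I were 1.24 to 1.56 for RPC-labelled and 1.15 to 1.41 for RP-labelled tumours.

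The 4 simple keratins made up nearly the whole keratin pool in 11 of the 12 tumours. Over 25 keratin genes, scaled per kb of coding sequence, their share was 97.5%, 97.4%, 97.9%, 97.7% and 44.3% in RPC-labelled tumours 1 to 5, against 96.1% to 98.1% in RP-labelled tumours. In RPC-labelled tumour 5, Krt4, Krt5, Krt13, Krt14 and Krt15, chains of stratified epithelia, made up 50.5% of the pool, against 0.180% to 0.730% in the other RPC-labelled and 0.119% to 1.19% in the RP-labelled tumours. That library held 705.9 CPM of Krt4, 606 of Krt13, 220 of Krt15 (219.6), 168 of Krt5 and 66.6 of Krt14, together with the highest levels of Pkp1 (35.0 CPM) and Evpl (92.6 CPM), desmosome genes of stratified epithelia. It was also the library with the highest Dsc2, Dsp and, among RPC-labelled tumours, Pkp3, and with the lowest Krt18. The part of these other transcripts in its values was not tested beyond leaving the library out.

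**Figure D4:**
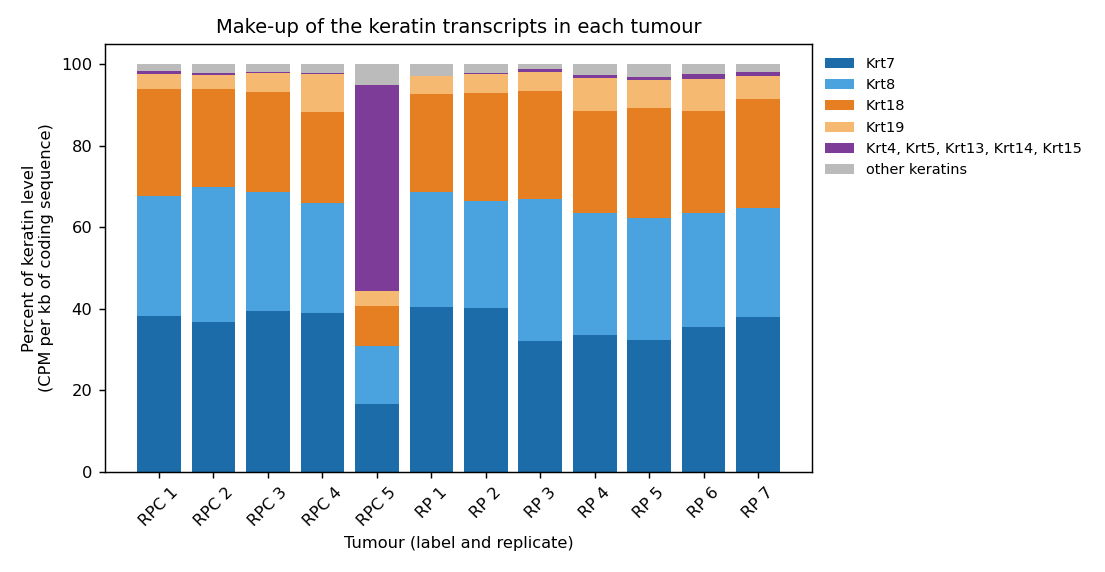
Share of each keratin in the summed level of 25 keratin genes (CPM per kb of coding sequence, percent), 1 bar per tumour, the 5 RPC-labelled tumours to the left. Krt7, Krt8, Krt18 and Krt19 fill 96.1% or more of the bar in every tumour except RPC-labelled tumour 5, where they fill 44.3%.

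Across tumours the 3 abundant keratins varied together. Pearson correlations used log2 CPM centred within each genotype. For Spearman, log2 CPM was first ranked over all 12 tumours, and the ranks were then centred within each genotype. Both covered all 45 pairs of the 10 genes, with exact permutation of tumours within genotypes (604800 orders) and Benjamini-Hochberg adjustment over the 45. Krt8 and Krt18 had a Pearson r of 0.94 (exact permutation p = 0.000437, adjusted p = 0.0196) and a Spearman rho of 0.88 (exact permutation p = 0.00232, adjusted p = 0.0411) over 12 tumours. The r was 0.95 without the 2 tumours farthest from the Krt8 median, 0.99 within RPC-labelled and 0.94 within RP-labelled tumours. Krt7 and Krt18 had an r of 0.93 (exact permutation adjusted p = 0.0358) and a rho of 0.87 (adjusted p = 0.0411), with 0.94 without the 2 farthest tumours, 0.97 within RPC-labelled and 0.88 within RP-labelled tumours. These were the 2 pairs of 45 past 0.05 by both measures. Krt7 and Krt8, with an r of 0.82, passed by Pearson (adjusted p = 0.0358) and missed by Spearman (adjusted p = 0.0560). All values of a tumour share its library and its scaling factor.

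The member that Krt19 tracked most closely was Pkp2, with an r of 0.79 (exact permutation p = 0.00671, adjusted p = 0.0661) and a rho of 0.85 (adjusted p = 0.0411). Among desmosome genes, Dsg2 and Jup had an r of 0.84 and a rho of 0.52 (exact permutation adjusted p = 0.0661 and 0.285), and the r was 0.24 within RPC-labelled and 0.91 within RP-labelled tumours, where RP-labelled tumours 1 and 3 held the highest values of both. Dsc2 and Pkp2 ran in opposite directions, with an r of -0.66 (exact permutation p = 0.0241, adjusted p = 0.0906) and a rho of -0.72 (adjusted p = 0.0845), -0.76 within RPC-labelled and -0.61 within RP-labelled tumours, and this pair did not pass the adjustment.

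**Figure D5:**
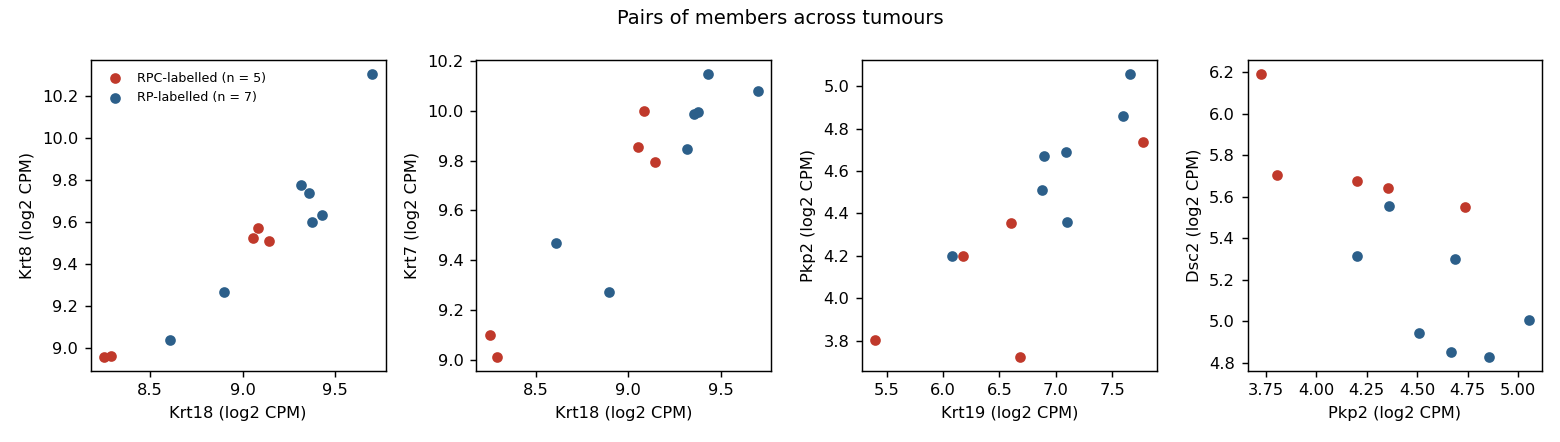
Log2 CPM of 4 pairs of genes (Krt8 and Krt7 against Krt18, Pkp2 against Krt19, Dsc2 against Pkp2), with RPC-labelled tumours in red and RP-labelled ones in blue; each point is a tumour. Points are not centred, whereas the r values are after centring within genotype. Krt8 and Krt18 climb together (r = 0.94). Dsc2 tends to be lower where Pkp2 is higher (r = -0.66), a pair that did not pass the adjustment.

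Over 14578 genes with a mean of at least 1 CPM, the genes whose centred log2 CPM was most like that of Krt8 across the 12 tumours were Krt18 and Phf23 (Pearson r of 0.94 each), AI837181 and Il18 (0.92 each) and Gprc5a (0.92). For Krt7 they were Fam100a (0.99), Dexi (0.95), Srp68 (0.94), Cdc42ep1 (0.93) and Krt18 (0.93), so Krt18 was among the 5 nearest of both type II chains. Dsp was most like Clip1 (0.96), Ube2v1 (0.95) and E130112N10Rik (0.94), and Dsg2 most like Plekha5 (0.95), Zc3h3 (0.95) and Rapgef2 (0.94). No other member stood among the 5 nearest genes of Dsp or of Dsg2. With 14578 genes and 12 tumours these values are a description, without a test.

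The promoters of the 3 keratins that varied together are given as the 250 bases before the RefSeq start of each gene, because all 3 lie on chromosome 15. Promoter entries were matched for 5 of the 10 members (Dsp, Jup, Krt7, Krt8 and Krt18). Sequences are from RefSeq, build GRCm38.p6, read 5′ to 3′ on the gene's strand, at chr15:101412153-101412402 (plus strand) for Krt7, chr15:102004343-102004592 (minus strand) for Krt8 and chr15:102027966-102028215 (plus strand) for Krt18. Capitals mark matches, on either strand, to GGGCGG (the GC box; CCGCCC on the other strand) and to CACCTG (an E-box bound by Snail and Zeb factors).
Krt7: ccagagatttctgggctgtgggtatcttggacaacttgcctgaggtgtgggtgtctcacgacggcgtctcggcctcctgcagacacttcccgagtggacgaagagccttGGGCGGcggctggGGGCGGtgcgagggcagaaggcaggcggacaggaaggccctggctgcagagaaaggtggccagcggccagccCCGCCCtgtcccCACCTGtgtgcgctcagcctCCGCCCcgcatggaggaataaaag
Krt8: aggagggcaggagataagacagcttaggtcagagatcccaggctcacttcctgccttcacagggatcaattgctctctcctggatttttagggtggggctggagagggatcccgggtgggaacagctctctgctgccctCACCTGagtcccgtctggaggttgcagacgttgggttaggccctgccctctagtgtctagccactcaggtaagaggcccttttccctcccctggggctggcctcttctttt
Krt18: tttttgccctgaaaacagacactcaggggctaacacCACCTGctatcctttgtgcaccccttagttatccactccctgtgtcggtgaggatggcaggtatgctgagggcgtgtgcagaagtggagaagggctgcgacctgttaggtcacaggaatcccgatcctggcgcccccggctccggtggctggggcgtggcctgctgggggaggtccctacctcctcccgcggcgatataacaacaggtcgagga

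CACCTG was found in each of these 3 windows, at 44 bases before the start in Krt7, 111 in Krt8 and 214 in Krt18, and in neither Dsp nor Jup; 17.2% of 32851 mouse promoters of the same length hold it on either strand. GGGCGG occurred 4 times in Krt7 and was absent from the Krt8 and Krt18 windows, while Dsp and Jup also held it, against 32.7% of all promoters. CCAAT occurred in Jup alone of the 5 (33.8% of all promoters). TATAAA (12.4%), the AP-1 site TGANTCA (6.75%) and the cyclic AMP response element TGACGTCA (1.55%) matched none of the 5 windows. GC content was 66.0% in Krt7, 58.0% in Krt8, 60.4% in Krt18, 72.4% in Dsp and 62.0% in Jup, beside a median of 52.4% over all promoters. The motifs did not overlap one another, and a match describes letters, not binding.

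Of 13 other desmosome genes, 7 had too few counts for the test, and of the 6 tested 1 was higher and none lower by edgeR (16.7% called, beside 18.3% of all genes tested; median log2 fold change -0.01). The one called was Evpl, which encodes envoplakin of the cornified envelope, at 58.4 ± 20.9 CPM (n = 5, SD) in RPC-labelled and 35.8 ± 5.64 CPM (n = 7, SD) in RP-labelled tumours (log2 fold change 0.71 ± 0.19 SE, edgeR adjusted p = 0.0265). Its log2 fold change was 0.47 with an adjusted p of 0.0598 without RPC-labelled tumour 5, and its call was also lost without any one of RPC-labelled tumours 1 and 2 and RP-labelled tumours 2, 4 and 6 (log2 fold changes of 0.65 to 0.73). Periplakin (Ppl), which pairs with envoplakin, was at 173 CPM in RPC-labelled and 170.0 CPM in RP-labelled tumours (adjusted p = 0.954), and Perp, a tetraspan membrane protein of desmosomes, at 40.0 CPM in RPC-labelled and 41.5 CPM in RP-labelled tumours (adjusted p = 0.933).

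Of 21 other keratins, 11 were tested, with 1 higher and 1 lower (18.2% called, beside 18.3% of all genes; median log2 fold change 0.26). The higher one was Krt4, whose log2 fold change of 6.39 (edgeR adjusted p = 0.0172) came down to 1.43 without RPC-labelled tumour 5, with an adjusted p of 0.0575. Krt10, a keratin of differentiating epidermis, fell to 12.7 ± 3.16 CPM (n = 5, SD) in RPC-labelled tumours, against 19.4 ± 4.45 CPM (n = 7, SD) in RP-labelled tumours (log2 fold change -0.61 ± 0.19 SE, edgeR adjusted p = 0.0439). This call was lost without any one of RPC-labelled tumours 1, 2, 3 and 5 or RP-labelled tumours 2, 4, 6 and 7, at log2 fold changes of -0.68 to -0.51.

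Of 14 intermediate filament genes outside the keratins, 11 were tested and 3 were higher and none lower in RPC-labelled tumours by edgeR (27.3% called, median log2 fold change 0.47), beside 18.3% called and 9.64% called higher over all genes tested. Ranges did not overlap for 2 of the 11 tested, both higher and both among the 3 called. Over all genes tested, ranges did not overlap for 6.26% (3.62% higher). Ina, which encodes the neuronal filament protein alpha-internexin, rose 1.76-fold, with 71.8 to 88.5 CPM in RPC-labelled and 37.7 to 61.9 CPM in RP-labelled tumours (edgeR adjusted p = 0.00331). Prph, which encodes peripherin of peripheral neurons, rose 5.40-fold to 39.6 ± 22.3 CPM (n = 5, SD), against 7.30 ± 3.15 CPM (n = 7, SD) in RP-labelled tumours (edgeR adjusted p = 0.00435). For both genes all 5 RPC-labelled tumours lay above the RP-labelled range. Lmnb1, which encodes lamin B1 of the nuclear envelope, rose 1.89-fold (edgeR adjusted p = 0.0459), a call lost without any one of 9 tumours (RPC-labelled 1, 2, 3 and 5, RP-labelled 1, 2, 4, 6 and 7), with a log2 fold change of 0.54 without RPC-labelled tumour 2 and of at least 0.85 without each of the others. Vimentin (Vim), the filament of mesenchymal cells, averaged 178 ± 68.7 CPM (n = 5, SD) in RPC-labelled and 257 ± 191 CPM (n = 7, SD) in RP-labelled tumours and was not called (adjusted p = 0.404).

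Proteins that link or modify keratin filaments gave 1 higher and 1 lower of 13 tested of 14 listed (15.4% called, beside 18.3% of all genes; median log2 fold change 0.14). The kinase gene Tnik was 1.70-fold higher (edgeR adjusted p = 0.0223), a call lost without any one of RPC-labelled tumours 1, 2 and 5 (log2 fold changes of 0.68 to 0.75). Krtcap2 was 1.70-fold lower (edgeR adjusted p = 0.0300) and encodes a subunit of the oligosaccharyltransferase in spite of its keratinocyte name; its call was lost without any one of RPC-labelled tumours 1, 2 and 5 or RP-labelled tumours 2 and 6 (log2 fold changes of -0.75 to -0.69). Plectin (Plec), the plakin that cross-links filaments, was at 164 CPM in RPC-labelled and 155 CPM in RP-labelled tumours (adjusted p = 0.813).

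All 7 hemidesmosome genes, which anchor keratins to the basement membrane, were tested, and 1 was lower (14.3% called, beside 18.3% of all genes; median log2 fold change -0.67). That was Cd151, a tetraspanin partner of laminin-binding integrins, 1.59-fold lower (edgeR adjusted p = 0.0234), and not called without RPC-labelled tumour 1 (log2 fold change -0.65, adjusted p = 0.0570).

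Of 12 genes of desmosome assembly and turnover, all tested, 2 were lower and none higher (16.7% called, median log2 fold change 0.12), a share near the 18.3% called over all genes (8.61% lower). Cdh1, which encodes E-cadherin of the neighbouring adherens junction, was at 50.8 to 124 CPM in RPC-labelled and 161 to 284 CPM in RP-labelled tumours, and was 2.61-fold lower with no overlap (edgeR adjusted p = 0.00782). Flot1, a flotillin of membrane microdomains, was 1.64-fold lower (edgeR adjusted p = 0.0143). Ctnnb1, which encodes beta-catenin, the close relative of plakoglobin, was at 531 ± 28.1 CPM (n = 5, SD) in RPC-labelled and 453 ± 43.3 CPM (n = 7, SD) in RP-labelled tumours and was not called (adjusted p = 0.106).

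Markers of other cell types differed between these tumours and are given beside the results above. Sums are over all genes listed and calls over those tested, beside 18.3% of all genes called (9.64% higher and 8.61% lower). Of 13 follicular cell markers, 12 were tested, with 2 lower and none higher. The 13 summed to 394 to 5969 CPM in RPC-labelled and 2046 to 9655 CPM in RP-labelled tumours. C cell markers (10 listed, 9 tested, 1 lower) summed to the values given above. RPC-labelled tumours 2 and 5, which had the lowest Krt7, Krt8 and Krt18 of their group, also had its lowest follicular sums, 394 and 552 CPM, and its lowest C cell sums, 30509 and 25175 CPM. RPC-labelled tumour 4, with the highest Krt7 and Krt19 of that group, had its highest sums, 5969 CPM for follicular and 137879 CPM for C cells. In the RP-labelled group the order was not kept, since RP-labelled tumour 3 had the lowest follicular sum, 2046 CPM, and the highest Krt8 and Krt18.

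Adipocyte markers were lower in 8 of 8 genes by edgeR and summed to 42.7 to 122 CPM in RPC-labelled and 60.2 to 1832 CPM in RP-labelled tumours. The RP-labelled tumours with the least adipocyte transcript, 1 (60.2 CPM) and 3 (81.1 CPM), were the 2 with the highest Dsp, Dsg2, Dsc2, Jup and Pkp3 of their group. RP-labelled tumour 5, next in adipocyte transcript (179 CPM), went the other way. It had the lowest Dsp (90.4 CPM), Dsg2 (106 CPM) and Pkp3 (25.5 CPM) of that group. Its Dsc2 (30.6 CPM) and Jup (295 CPM) were under the group medians. Of 12 airway and squamous markers, 9 were tested, with 1 higher and 1 lower. The 12 summed to 27.5 to 1752 CPM in RPC-labelled tumours, highest in tumour 5, and to 44.9 to 2231 CPM in RP-labelled tumours. The high sums came from different genes. Krt4 and Krt13 reached 705.9 and 606 CPM in RPC-labelled tumours but no more than 4.14 and 1.04 CPM in RP-labelled tumours. Bpifa1 reached 1525 CPM in RP-labelled and 47.4 CPM in RPC-labelled tumours. In RPC-labelled tumours muscle markers (8 listed, 6 tested, none called) summed to 8.16 to 3185 CPM, again highest in tumour 5. In RP-labelled tumours they summed to 14.5 to 2942 CPM.

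Fibroblast markers (6 tested, 1 lower) summed to 427 to 1619 CPM in RPC-labelled and 529 to 3244 CPM in RP-labelled tumours. Leukocyte markers (6 listed, 4 tested, 1 lower) summed to 18.7 to 40.0 CPM in RPC-labelled and 27.1 to 126 CPM in RP-labelled tumours. Endothelial markers (6 tested, 1 lower) summed to 35.8 to 114 CPM in RPC-labelled and 56.6 to 127 CPM in RP-labelled tumours. Parathyroid markers (3 tested, none called) summed to 126 to 1193 CPM in RPC-labelled and 103 to 2801 CPM in RP-labelled tumours. Thymic markers (4 listed, 3 tested, 1 lower) stood at 3.46 to 9.16 CPM in RPC-labelled and 4.89 to 17.9 CPM in RP-labelled tumours. Mesothelial markers (5 listed, 2 tested, none called) stood at 1.56 to 11.8 CPM in RPC-labelled and 2.67 to 33.3 CPM in RP-labelled tumours. Of 6 salivary and mucous gland markers, 4 were tested and none was called. The 6 summed to 52.2 to 235 CPM in RPC-labelled and 94.5 to 228 CPM in RP-labelled tumours. No marker list had a gene at 0 in all 12 tumours, and the part of any of these cell types in the keratin and desmosome values was not tested.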

How the data were processed

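RNA was extracted in TRIzol and passed over oligo dT beads to keep polyadenylated transcripts, and the NEBNext Ultra RNA kit was used for libraries, per the labels' protocols. Per the submitters' processing notes, reads were handled on build mm9 with HTSeq 0.6.1, TopHat2 2.0.12 and bcl2fastq 1.8.2. What the authors deposited is a table for each tumour of raw counts over 23284 genes. The 5 summary lines of the counter entered neither library sizes nor tests. Among them, reads outside any gene came to 13.1% to 17.6% of each table and reads with several alignments to 10.9% to 18.5%. The sources used here do not state the annotation or the strand setting of that counting. In the GENCODE vM21 annotation of GRCm38, Dsg2, Dsp, Krt7 and Krt8 each overlap a gene on the other strand, and Krt8 has a processed pseudogene, so reads of these 4 genes are less certain.

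The genotypes were compared over all 12 tumours, without covariates, in edgeR 4.0.16 (R 4.3.3) by the quasi-likelihood F test in its robust form, after filterByExpr at a minimum count of 10 (14989 genes left) and TMM scaling, with Benjamini-Hochberg adjustment. A gene was called at an adjusted p below 0.05. Log2 CPM used a prior count of 2, and a difference of log2 ratios was tested exactly over all 792 splits. Levels per kb used lengths from the GENCODE annotation. Floors of 3 counts cover counting error only. The test was checked on simulated counts, where it recovered 70% of genes changed 2-fold and 92% of genes changed 4-fold. Of its 169 calls there, 7 were false. Folds under 2 were not simulated. Ratios, correlations and figures were made in Python 3.11.15 with pandas 2.3.3, matplotlib 3.10.9, scipy 1.17.1 and numpy 2.4.6.

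The members, gene lists, markers and motifs were chosen with earlier results of these data known. The genes named are the 10 members in every tumour, the called members of each list and the genes nearest to Krt8, Krt7, Dsp and Dsg2. Krt5, Krt13, Krt14, Krt15, Pkp1, Ppl, Perp, Plec, Vim, Ctnnb1, Calca, Tg and Crebbp are named besides. As alternatives, the fit was repeated in limma 3.58.1 (voom, sample weights) and DESeq2 1.42.0, with 2 other scalings and 2 other filters, with each tumour left out, and tumours 1 to 5 of each group with and without the number as a block. Leaving out RPC-labelled tumour 4 and RP-labelled tumour 3 together was added after seeing the data.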

Additional observations from a re-analysis of the deposited data

Results flagged for a closer look

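A value far from the rest of its group was looked for in 54 sets of values, and 5 were found. Each set was from the 5 RPC-labelled or the 7 RP-labelled tumours. Chance gives about 1 in 20 sets. The sets share tumours and some share a gene, so the 5 found cannot be set against that rate. Dsc2 stood at 72.8 CPM in RPC-labelled tumour 5, against 46.7 to 52.1 CPM in the other RPC-labelled tumours. The log2 ratio of Dsg2 to Dsc2 was 0.67 in the same tumour, against 1.36 to 1.62 in the others of its group. Krt4 stood at 705.9 CPM in that tumour, against 1.86 to 7.06 CPM in the other RPC-labelled tumours. In RP-labelled tumour 6 Krt4 was 4.14 CPM, against 0.866 to 1.91 CPM in the other RP-labelled tumours. Lmnb1 stood at 88.5 CPM in RP-labelled tumour 5, the deepest library, against 38.4 to 59.9 CPM in the others of that group.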

How the results depend on the processing

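Dsc2 kept its direction in all 21 alternatives (log2 fold change 0.50 to 0.77, adjusted p 0.00119 to 0.0851). It was called in 19, missing in both fits of tumours 1 to 5. The 0.77 came from leaving out RPC-labelled tumour 4 and RP-labelled tumour 3 together, the setting added after seeing the data. Genes called over the table numbered 2736, and 6357 with voom, 868 with tumours 1 to 5 and 463 with their number as a replicate block, 4180 without RPC-labelled tumour 4 and RP-labelled tumour 3, and 1074 to 3510 when 1 tumour was left out. The count was under 2736 by over 1.5 times without RPC-labelled tumours 1 (1322), 2 (1074), 3 (1782) and 5 (1820) and RP-labelled tumours 2 (1653), 4 (1547) and 6 (1692). Members called were 1, and 5 with voom (Dsp, Dsc2, Pkp3, Pkp2 and Krt18), 3 without RPC-labelled tumour 4 and RP-labelled tumour 3 (Dsc2, Pkp2 and Pkp3), and 1 to 2 with 1 tumour left out. None was called by edgeR with tumours 1 to 5, without the block or with it (1 member under an unadjusted p of 0.05 in each; 1 by DESeq2 over all tumours). Of the 6 ratios, 2 passed, against 1 to 4 with 1 tumour left out and 0 in the paired test with the replicate block, whose 32 sign flips cannot give a p below 0.0625; there the Dsg2/Dsc2 difference was -0.65. The cause of these shifts was not tested.

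Signs that turned belonged to values near 0. For Dsg2 the log2 fold change was -0.00067 with DESeq2, -0.0014 with its size factors, -0.0076 with upper quartile scaling, -0.0051 at a minimum count of 50, -0.022 with tumours 1 to 5 without the block, and -0.061 to 0.085 with 1 tumour left out. Crebbp gave 0.19 with voom, 0.0054 with the block and -0.077 to 0.19 with 1 tumour left out. Krt19/Krt18 gave 0.047 with the block and -0.27 to 0.15 with 1 tumour left out, and Krt7/Krt8 gave -0.028 to 0.094. Ina, Prph and Cdh1 were called in all 21. Between tumours of like number, deviations from the group mean correlated at -0.167 to 0.213 over 14752 genes. Of tumours 1 to 5, 1 RPC-labelled and 2 RP-labelled tumours correlated best with their own number. No pairing by number was seen, but 5 such correlations cannot exclude one. Depth limits the listed genes under the filter more than the members, all above 13 CPM.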
